A study of Mus musculus with 12 samples.

Results

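Chromatin accessibility around 8 genes was examined in embryonic fibroblasts (MEFs) and embryonic stem cells (mESCs) of the mouse: the developmental pluripotency associated genes Dppa2, Dppa4 and Dppa5a, and the germline genes Dazl, Ddx4, Sycp3, Mael and Tdrd1. All peaks were taken that lay within 5 kb of the annotated gene bodies (GENCODE M21 on GRCm38), 17 of 91354 peaks in the BGI peak set and 18 of 87027 in the Illumina peak set. All peaks had the same width. Of the 8 genes, 7 had at least one peak of their own, and Tdrd1 had none, since every peak within 5 kb of Tdrd1 lay at the promoter of a neighbouring gene.

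The cells had a C57/Bl6 background and carried no genetic change or treatment in the labels. MEFs were sorted as Thy1+ and mESCs as Thy1-/Ssea1+/Epcam+. Omni-ATAC-seq, in which the transposase Tn5 cuts and tags open DNA, was performed on 3 libraries per cell type (numbers 1, 2 and 4 for MEFs, and 1, 3 and 5 for mESCs). Each of the 6 libraries was sequenced on BGI (DNBSEQ-G400) and Illumina (HiSeqX10) instruments, which gave 12 samples in 4 groups of 3. The 2 readings of a library were treated as repeat readings and not as further replicates. Levels are given as CPM, the reads of a peak scaled to the same total of reads in peaks for every sample. Because the assay averages over many cells, more cells with an open site and a more open site per cell cannot be told apart.

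Dppa2 and Dppa4 are neighbouring genes that encode partner proteins with a SAP domain. They bind chromatin in pluripotent cells and are known for keeping developmental promoters poised and for activating genes of the cleavage-stage embryo. Dppa5a encodes an RNA-binding protein with a KH-type domain and is a marker of pluripotent cells. Dazl and Ddx4 are RNA regulators of germ cells, Sycp3 is a structural protein of the synaptonemal complex that holds homologous chromosomes together in meiosis, and Mael and Tdrd1 act in the piRNA pathway, which silences transposons in the germline. Many germline promoters are rich in CpG dinucleotides and are DNA-methylated in somatic cells. In mESCs, the repressor complex PRC1.6 is known to hold many germline genes silent and contains DNA-binding subunits that recognise E-box and E2F motifs.

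The labels were first compared with marker genes. Each of the 8 mESC markers had a promoter peak that was called higher in mESCs on both platforms, and of the 8 MEF markers 7 were called lower and Pdgfra was not called. Over all protein-coding genes with a promoter peak, 22.1% were called higher and 44.1% lower on BGI, and 22.5% and 45.8% on Illumina. The markers include Thy1 and Epcam, on which the cells were sorted. Reads in peaks ranged from 20085886 to 21662775 in MEFs and from 15860985 to 16911482 in mESCs on the BGI peak set, and the Illumina samples lay within nearly the same bounds on theirs. Markers of other cells gave no single direction. The promoter of the blood gene Cd68 was the only measured one of 3 blood markers and was called higher in mESCs, endoderm markers were called higher for 3 genes and lower for 1, the 2 measured endothelial markers were not called, and of the 3 measured germ cell markers Stra8 was called higher, Nanos3 lower and Tex14 neither. The part of such cells in the results below was not tested.

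At the start of 6 of the 8 genes the reproducible peak sets contained a site that was more accessible in mESCs than in MEFs. These were Dppa2, Dppa4, Dppa5a, Ddx4, Sycp3 and Mael. In MEFs, 29.4% of all BGI peaks had a lower mean level than the Dppa2 site, and 0.398% (Dppa4) to 13.6% (Sycp3) had a lower one than the other 5. Of the 17 BGI peaks, 14 were called higher and 2 lower in mESCs, and of the 18 Illumina peaks 15 were called higher and 2 lower (edgeR quasi-likelihood test, Benjamini-Hochberg adjusted p under 0.05). Cell type differences were common in these data: of all BGI peaks 40.9% were called higher and 43.2% lower in mESCs, and of all Illumina peaks 42.1% and 42.4%. MEF and mESC samples did not overlap at 16 of the 17 BGI peaks and 17 of the 18 Illumina peaks, against 85.1% and 85.6% of all peaks. The median log2 fold change (mESC over MEF) was 4.52 over the 17 BGI peaks and -0.08 over all BGI peaks, and 4.42 and -0.03 on Illumina. A peak entered the set only when it was reproducible in at least one cell type, and 14 of the 15 peaks that belonged to the genes themselves were on the mESC list of reproducible peaks and not on the MEF list of either platform. Such a peak entered the sets through mESCs alone, which favours a higher level there. The count of calls, the median and the adjusted p-values given below for these peaks are therefore descriptions. Nothing is read from their distance to the values over all peaks, which include those reproducible in MEFs. All 17 and 18 peaks passed the filter on low counts.

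**Figure D1:**
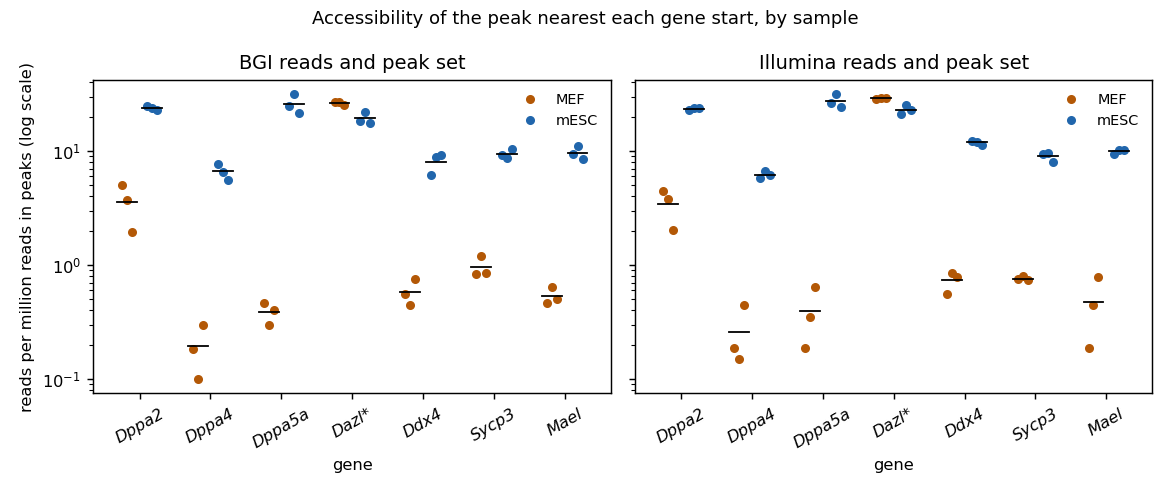
CPM (log scale) at the peak nearest the start of each gene with a peak of its own (Tdrd1, without one, is not drawn), with MEF samples in orange and mESC samples in blue, a point for each sample and a bar at the mean of 3, for BGI (left) and Illumina (right). MEF samples lie below mESC samples at every gene but Dazl, whose nearest peak (asterisk, 758 bp into the gene on BGI) is open in both cell types, and Dppa2 has the highest MEF level of the other 6 genes.

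The Dppa2 promoter peak (chr16:48303565-48304066) covered the beginning of the non-coding first exon. Its BGI levels were 5.08, 3.73 and 1.94 CPM in MEFs 1, 2 and 4, and 24.9, 23.8 and 22.9 CPM in mESCs 1, 3 and 5. Every mESC sample was above every MEF sample, but the MEF samples also stood apart from those of the other start peaks that were higher in mESCs, none of which exceeded 1.19 CPM. The log2 fold change was 2.65 ± 0.22 (SE, edgeR adjusted p = 5.21e-09), and 2.73 ± 0.20 on Illumina (edgeR adjusted p = 8.07e-10). This was the smallest change of the peaks called higher on both platforms. In mESCs, 89.7% of all BGI peaks were lower than the Dppa2 promoter by mean level.

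Farther into Dppa2, MEFs had almost no reads. An intronic peak (chr16:48308910-48309411) with its centre 5252 bp downstream of the start rose from 0.291 ± 0.199 CPM to 10.2 ± 2.57 CPM (SD, n = 3 each). The next peak (chr16:48309879-48310380), at 6221 bp, lay over the beginning of the second exon and just upstream of the start of a shorter annotated Dppa2 transcript. In MEFs 1, 2 and 4 it held 2, 6 and 0 reads on BGI, and in mESCs 1, 3 and 5 it held 180, 230 and 201 reads. With 8 MEF reads in all, the log2 fold change of 6.45 ± 0.40 rests on few counts (edgeR adjusted p = 1.05e-10). It was 7.77 without MEF library 2 and 5.90 without MEF library 4. Illumina gave 5.92 ± 0.39 with 10 MEF reads (edgeR adjusted p = 2.42e-10), and 6.59 without MEF library 4. The 2 inner peaks of Dppa2 thus had larger log2 differences than its promoter on both platforms.

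Dppa4 had a single peak, at its promoter (chr16:48283469-48283970), over the beginning of the first exon. BGI levels were 0.185, 0.0994 and 0.299 CPM in MEFs 1, 2 and 4, from 4, 2 and 6 reads, and 7.69, 6.56 and 5.59 CPM in mESCs 1, 3 and 5. No MEF sample came near an mESC sample. The log2 fold change was 4.98 ± 0.39 (edgeR adjusted p = 1.98e-09), and 4.50 ± 0.37 on Illumina (edgeR adjusted p = 3.53e-09). In mESCs Dppa4 had the lowest mean level of the 6 gene starts with a peak higher in mESCs, although its BGI samples overlapped those of Ddx4, and 42.2% of all BGI peaks were lower.

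Dppa5a, a gene little longer than 1 kb, was surrounded by 6 peaks. Their centres reached from -3459 to 3220 bp relative to its start, and only the promoter peak (chr9:78367977-78368478) overlapped the gene. The promoter held 0.462, 0.298 and 0.398 CPM in MEFs 1, 2 and 4 on BGI, and 24.6, 31.6 and 21.6 CPM in mESCs 1, 3 and 5. Its log2 fold change was 5.98 ± 0.25 (edgeR adjusted p = 1.00e-12), and 6.07 ± 0.25 on Illumina (edgeR adjusted p = 7.99e-13). The groups were separated by a wide gap on both platforms.

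The upstream peak of Dppa5a at -1358 bp (chr9:78369285-78369786) was as accessible as the promoter, with 29.9 ± 2.14 CPM in mESCs against 25.9 ± 5.14 CPM (SD, n = 3), and the samples of the 2 peaks overlapped. Between them lay the least accessible of the 6 peaks, at -613 bp, with 9.86 ± 0.421 CPM in mESCs. The outer peaks at -3459, 2096 and 3220 bp had means between 13.7 and 16.9 CPM. In MEFs the highest mean of the 6 peaks was 0.560 CPM. Summed over the 6 peaks, Dppa5a had 2.48 ± 0.812 CPM in MEFs and 111 ± 9.72 CPM in mESCs on BGI (SD, n = 3), the largest sum of the 7 genes with peaks of their own in mESCs. All 6 peaks were called higher in mESCs on both platforms, with log2 fold changes of 4.52 to 5.98 on BGI and 4.66 to 6.33 on Illumina.

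**Figure D2:**
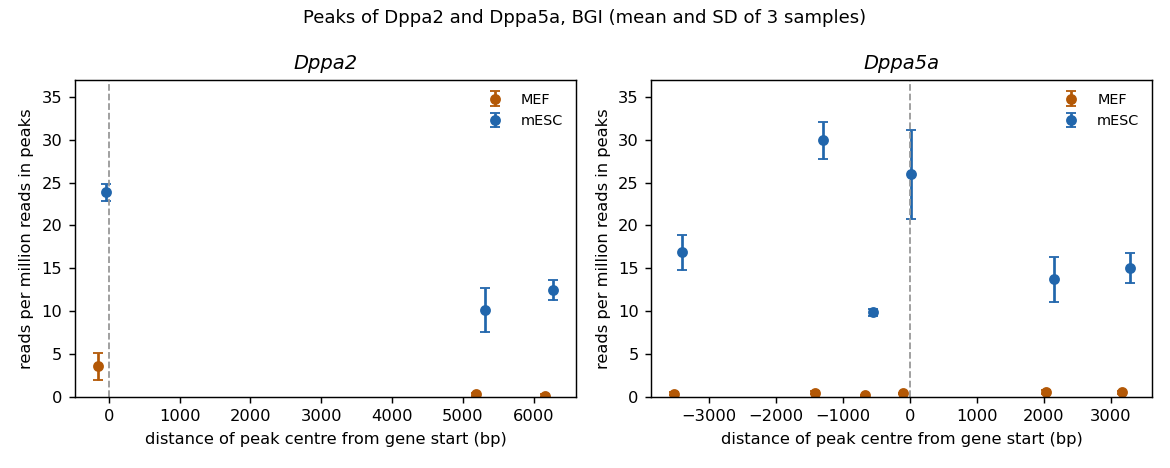
Mean BGI level with its SD (n = 3) for each peak of Dppa2 (left) and Dppa5a (right) against the distance of the peak centre from the gene start (dashed line), with MEF in orange and mESC in blue drawn slightly apart. Dppa2 is most accessible at its promoter, where MEFs have 3.58 CPM, and Dppa5a has a pair of high peaks at -1358 bp and at the promoter within a cluster of 6.

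Among the germline genes, the promoter sequences of Mael, Sycp3, Dazl and Tdrd1 are shown, because the first pair had a reproducible peak at the start in mESCs and the second pair had none. They are the 250 bases before the RefSeq start on GRCm38.p6, 5′ to 3′ on the strand of the gene, and capitals mark matches to the E-box CACGTG and to the E2F-type motif GCGGGA on either strand (TCCCGC on the other). RefSeq and GENCODE starts differ for most of these genes, and at Ddx4 much of the RefSeq window lies within the first exon of the longer GENCODE transcript. For Tdrd1 the table held 3 starts, and the one that matches the GENCODE gene start is shown. The promoter table held 5 of the 8 genes, and Dppa2, Dppa4 and Dppa5a were not in it.
Mael, chr1:166238745-166238994, minus strand: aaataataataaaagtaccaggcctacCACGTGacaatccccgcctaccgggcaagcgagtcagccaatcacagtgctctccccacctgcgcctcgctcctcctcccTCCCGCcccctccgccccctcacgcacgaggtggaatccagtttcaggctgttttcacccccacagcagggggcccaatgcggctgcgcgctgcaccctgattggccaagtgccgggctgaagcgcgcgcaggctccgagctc
Sycp3, chr10:88459337-88459586, plus strand: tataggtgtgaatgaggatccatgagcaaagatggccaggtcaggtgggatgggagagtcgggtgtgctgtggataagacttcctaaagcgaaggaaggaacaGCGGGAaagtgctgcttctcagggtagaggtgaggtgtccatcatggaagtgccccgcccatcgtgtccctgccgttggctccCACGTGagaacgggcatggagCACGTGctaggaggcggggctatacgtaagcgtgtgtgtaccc
Dazl, chr17:50293621-50293870, minus strand: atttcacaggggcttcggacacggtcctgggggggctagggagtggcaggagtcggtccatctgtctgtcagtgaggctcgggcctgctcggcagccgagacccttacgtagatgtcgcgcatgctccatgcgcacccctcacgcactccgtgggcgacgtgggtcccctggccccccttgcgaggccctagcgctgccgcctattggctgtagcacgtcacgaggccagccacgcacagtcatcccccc
Tdrd1, chr19:56825959-56826208, plus strand: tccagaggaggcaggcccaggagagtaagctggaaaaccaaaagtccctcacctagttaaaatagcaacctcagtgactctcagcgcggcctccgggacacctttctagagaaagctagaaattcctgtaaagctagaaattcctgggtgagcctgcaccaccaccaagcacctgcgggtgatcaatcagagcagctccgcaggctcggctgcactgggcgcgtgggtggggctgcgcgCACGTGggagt

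The E-box was found in 4 of these 5 genes, with 1 match in Mael, 2 in Sycp3 (bases -64 to -59 and -43 to -38 before the start), 1 in Ddx4 (-29 to -24) and 1 in Tdrd1 (-11 to -6), whereas 6.02% of 32817 RefSeq promoters hold one in the same window. The E2F-type motif was found in Mael, Sycp3 and Ddx4, and in 16.9% of all promoters. Dazl held neither hexamer. Relative to the second RefSeq start of Tdrd1 the same E-box lay at -77 to -72, and the window of the third start held neither motif. These windows contained 18 (Mael), 12 (Sycp3), 31 (Ddx4), 20 (Dazl) and 11 (Tdrd1, with 22 and 3 for its other starts) CpG dinucleotides, against a median of 6 over all promoters. Both motifs contain a CpG, and most of these windows hold more CpG than the median promoter. The shares over all promoters are therefore not a matched background, and nothing is read from the distance to them. A match in the letters is a description and not evidence of binding.

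Mael, whose product takes part in piRNA-guided silencing of transposons, had 1 peak (chr1:166238482-166238983), with its centre 15 bp from the start and over the first exon. BGI levels were 0.462, 0.646 and 0.498 CPM in MEFs 1, 2 and 4 and 9.33, 11.1 and 8.45 CPM in mESCs 1, 3 and 5. The groups did not overlap on either platform. The log2 fold change was 4.09 ± 0.28 (edgeR adjusted p = 3.56e-10), and 4.34 ± 0.32 on Illumina (edgeR adjusted p = 8.16e-10).

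Sycp3 had 2 peaks, both within a gene that overlaps it on the other strand, Chpt1, and ATAC-seq reads carry no strand. At the start (chr10:88459383-88459884), levels were 0.831, 1.19 and 0.846 CPM in MEFs 1, 2 and 4 and 9.20, 8.63 and 10.4 CPM in mESCs 1, 3 and 5 on BGI. The intronic peak 1023 bp downstream (chr10:88460342-88460843) was nearly as accessible in mESCs, with 8.17 ± 0.605 CPM (SD, n = 3). Log2 fold changes were 3.23 ± 0.25 at the start and 3.70 ± 0.31 in the intron (edgeR adjusted p = 1.92e-09 and 4.14e-09), and 3.51 ± 0.25 and 3.99 ± 0.34 on Illumina (edgeR adjusted p = 5.79e-10 and 4.43e-09).

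Ddx4, the mouse homologue of the RNA helicase vasa, had 1 peak (chr13:112652107-112652608) over its first, non-coding exon, at whose start the annotated transcripts differ. BGI levels were 0.554, 0.447 and 0.747 CPM in MEFs 1, 2 and 4, and 6.12, 8.81 and 9.13 CPM in mESCs 1, 3 and 5. The log2 fold change was 3.70 ± 0.31 (edgeR adjusted p = 3.95e-09). On Illumina the mESC samples were closer together, at 11.9 ± 0.489 CPM (SD, n = 3), and the log2 fold change was 3.97 ± 0.24 (edgeR adjusted p = 6.05e-11). Over the same BGI peak, mESC library 1 gave 97 reads on BGI and 189 on Illumina, a CPM ratio of 0.522, which was the lowest of the 51 ratios of mESC readings over the 17 peaks. Without the Ddx4 values the lowest was 0.779, and the median ratio was 0.984.

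In mESCs on BGI, the order of the start peaks by mean level was Dppa5a (25.9 ± 5.14 CPM), Dppa2 (23.8 ± 1.02), Mael (9.63 ± 1.36), Sycp3 (9.42 ± 0.921), Ddx4 (8.02 ± 1.66) and Dppa4 (6.62 ± 1.05; all SD, n = 3, and equal peak width). Dppa5a overlapped Dppa2, and Mael, Sycp3 and Ddx4 overlapped each other. The samples of the upper pair lay above all samples of the lower 4. On Illumina Ddx4 was the third (11.9 ± 0.489), with all samples above those of Mael (9.92 ± 0.472) and Sycp3 (9.02 ± 0.829), which overlapped each other, and Dppa4 was again the lowest (6.21 ± 0.428).

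Dazl differed from the other genes. Its only peak in the sets (chr17:50292628-50293129) was centred 758 bp inside the gene, over the first exon of a shorter annotated transcript, and was open in both cell types. BGI levels were 27.1, 26.6 and 25.1 CPM in MEFs 1, 2 and 4 and 18.5, 21.9 and 17.6 CPM in mESCs 1, 3 and 5. All mESC samples were below all MEF samples, with a log2 fold change of -0.51 ± 0.12 (edgeR adjusted p = 0.000607), and -0.38 ± 0.10 on Illumina (edgeR adjusted p = 0.00204). This peak was on the reproducible lists of MEFs and mESCs on both platforms, and 90.8% of all BGI peaks were lower in MEFs.

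The peaks within 5 kb of Tdrd1 belonged to its neighbours. A peak at -3926 bp from the Tdrd1 start (chr19:56822033-56822534) lay at the promoter of Ccdc186, with 33.7 ± 1.90 CPM in MEFs and 25.9 ± 1.72 CPM in mESCs (SD, n = 3) and a log2 fold change of -0.45 ± 0.10 (edgeR adjusted p = 0.000467). Downstream of the gene, a peak at the promoter of Vwa2 (chr19:56874008-56874509) had 6.50 ± 0.919 CPM in MEFs and 8.02 ± 0.905 CPM in mESCs and was not called on BGI (log2 fold change 0.24 ± 0.19, edgeR adjusted p = 0.244). The corresponding Illumina peak was called (0.52 ± 0.18, edgeR adjusted p = 0.0150), a call that was lost without MEF library 2 (0.42, edgeR adjusted p = 0.0676), without mESC library 3 (0.35, edgeR adjusted p = 0.122) and with the BGI samples (0.24, edgeR adjusted p = 0.243). A second Vwa2 peak, found only in the Illumina set, gave -0.51 ± 0.24 (edgeR adjusted p = 0.0509).

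**Figure D3:**
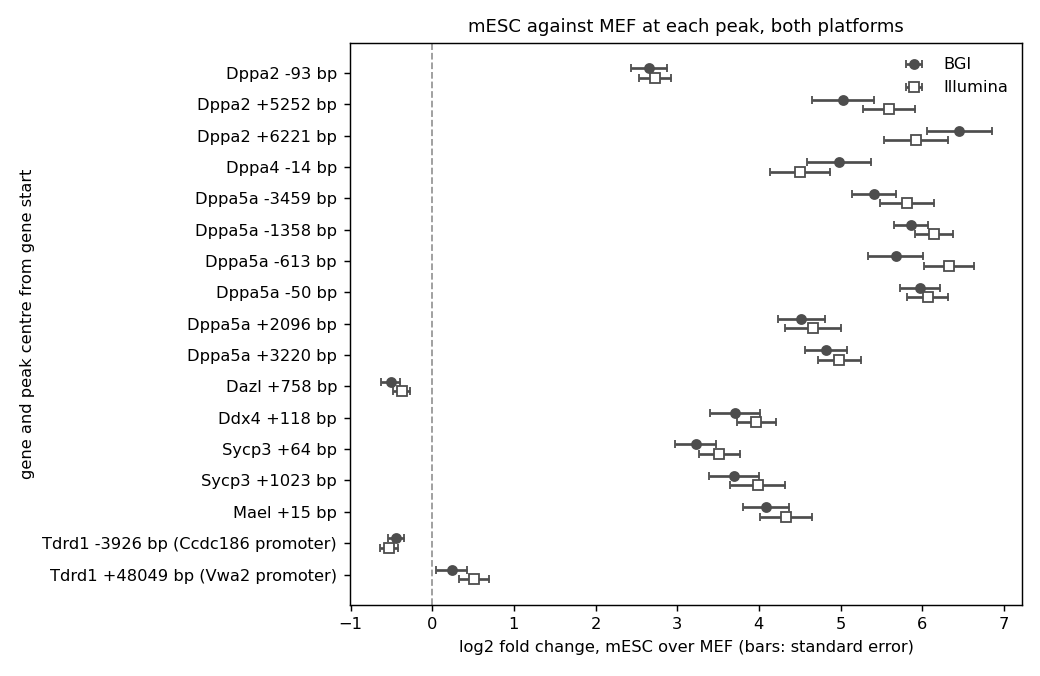
Log2 fold change of mESC over MEF with its standard error for the 17 BGI peaks (filled circles) and the nearest Illumina peak (open squares), named by gene and by the distance of the BGI peak centre from the gene start. All peaks of Dppa2, Dppa4, Dppa5a, Ddx4, Sycp3 and Mael lie above 2 on both platforms, the Dazl and Ccdc186 peaks lie below 0, and the Vwa2 peak lies between 0 and 1.

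Peak calls of single samples, made before any reproducibility rule, showed a site at the starts of Dazl and Tdrd1 that the peak sets left out. In each sample the strongest call with its summit within 500 bp of the annotated gene start was taken. At the Dazl start all 6 mESC samples (3 libraries on 2 platforms) had a call, with enrichment over the genome background from 6.53-fold to 10.4-fold on BGI and from 7.20-fold to 12.3-fold on Illumina, and none of the 6 MEF samples had one. Summits lay between -50 and 33 bp from the start, apart from the peak open in both cell types. At the Tdrd1 start all 6 mESC samples had a call as well, with 7.39-fold to 8.33-fold enrichment on BGI and 5.70-fold to 6.60-fold on Illumina. Of the MEF samples, 1 and 2 on BGI (2.89-fold and 3.13-fold) and 2 on Illumina (3.65-fold) had a weaker call there.

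The same calls were made for the other genes. Every one of the 8 gene starts was called in all 3 mESC samples of both platforms, as were 66.2% of the starts of 21728 protein-coding genes on each platform, so that these calls do not set the 8 genes apart. Dppa4, Dppa5a, Dazl, Ddx4, Sycp3 and Mael were called in no MEF sample, so that 6 of 8 genes were called in all 3 mESC samples and no MEF sample of a platform, a pattern found at 3.36% of the same genes on BGI and 3.41% on Illumina. For all 8 genes the -log10 p of every mESC sample exceeded that of every MEF sample, which held for 12.8% and 12.5% of all genes. At the 6 genes without a MEF call this order only restates the missing calls. The reverse order, with every MEF sample above every mESC sample, was more common, at 7247 of the 21728 genes on BGI and 7646 on Illumina. The -log10 p was not scaled for depth, and MEF samples had been down-sampled to 60 M reads and mESC samples to 45 M. A missing call does not show a closed site, since a call needs a p-value below the threshold of the peak caller. The genes were chosen with earlier results of these data known, and the 500 bp window after seeing the calls. Nothing is therefore read from the distance of the 8 genes to the shares over all genes.

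Relative to the total of all call scores in a sample, scaled as the authors did, the Tdrd1 start reached 2.23 to 2.52 in mESCs on BGI and 1.41 to 1.86 on Illumina, and the Dazl start 1.88 to 3.51 and 2.13 to 4.51. A reproducible peak of the authors needed at least 3 in at least 2 samples. That value was reached by no Tdrd1 sample and by 1 Dazl sample on each platform, though also by only 1 of 3 Illumina samples for Dppa4 and Sycp3, which were listed. The scores here were taken over all calls, and those of the authors after removal of overlapping ones, so the 2 scales differ.

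At the Dppa2 start the position of the calls differed between the cell types. In mESCs the strongest summit lay between -173 and -69 bp from the start in all 6 samples, with 24.5-fold to 29.1-fold enrichment. In MEFs it lay 301 to 351 bp downstream, near the end of the first exon, in 5 of the 6 samples, and at -158 bp in the Illumina sample of library 2, with 4.06-fold to 7.94-fold enrichment. The promoter peak of the BGI set ended before that downstream position. No test was made of this shift, and the 6 values per cell type came from 3 libraries.

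**Figure D4:**
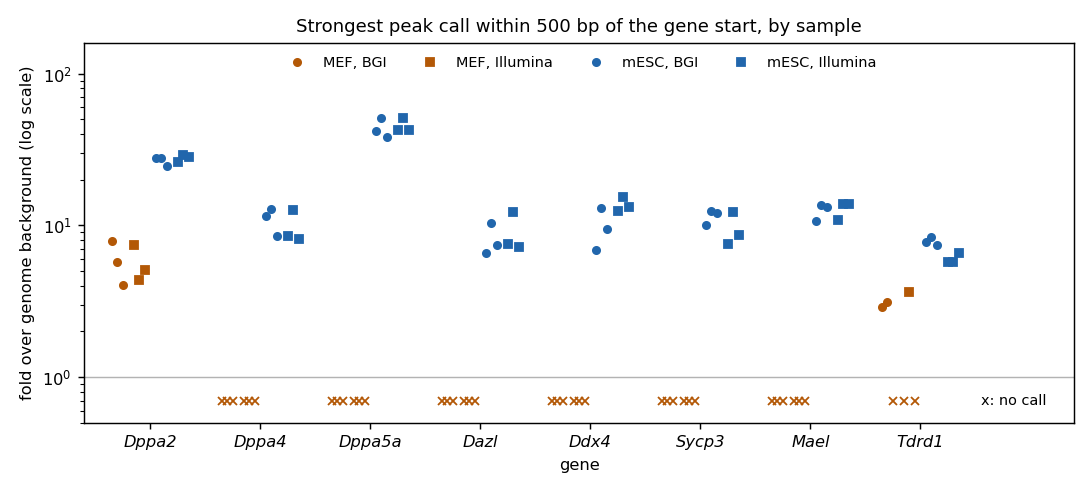
Fold enrichment over the genome background (log scale) of the strongest call within 500 bp of each gene start, with a point for each sample, circles for BGI and squares for Illumina, MEF in orange and mESC in blue, and crosses at the bottom for samples without a call. All mESC samples have a call at all 8 genes, as at 66.2% of all protein-coding genes, while MEF samples have calls at Dppa2 (4.06-fold to 7.94-fold) and 3 weak ones at Tdrd1.

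The peaks at the gene starts differed in base composition. Germline start peaks had 63.5% (Sycp3), 68.7% (Mael) and 73.7% (Ddx4) GC, and the Dazl peak had 73.9%, whereas the Dppa4, Dppa2 and Dppa5a promoter peaks had 40.0%, 46.6% and 55.8%. The median over 13789 promoter peaks of protein-coding genes in the BGI set was 62.4%. The ratio of observed to expected CpG dinucleotides was 0.633 to 0.851 at the germline starts and 0.294 to 0.436 at the Dppa promoters, against a median of 0.754. Away from the starts, the other 5 Dppa5a peaks had CpG ratios from 0.0474 to 0.407, and the intronic Sycp3 peak had 0.355 with 58.2% GC, within the range of CpG ratios of the Dppa promoters. These are descriptions of 7 genes and carry no test.

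No dependence of the contrast on the instrument was detected at these peaks. On the BGI peak set, the interaction of platform and cell type was called at 0 of the 17 peaks and at 0.0% of all peaks (edgeR quasi-likelihood test over 12 samples). At an unadjusted p under 0.05 there were 0 of the 17 peaks and 2386 of 91354. With the library as a replicate block, which uses the pairing of the 2 readings, 353 peaks of the set were called and 0 of the 17. The interaction term, the BGI minus the Illumina log2 fold change in the joint fit, was 0.67 ± 0.61 at the Dppa4 promoter and -0.10 ± 0.40 at Ddx4. These terms include an offset set by the scaling, since their median over all peaks was 0.11 with TMM and -0.01 with size factors. In separate fits of the BGI peaks, Dppa4 had 4.98 with the BGI samples and 4.43 with the Illumina samples, and the Dppa2 peak at 5252 bp had 5.03 and 5.57. With standard errors from 0.15 to 0.88 over the 17 peaks, smaller differences could not be resolved at the peaks with few MEF reads.

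Promoter peaks of other genes from related pathways were counted next. A promoter peak was one within 1 kb of an annotated start, and the one with the most reads was used per gene. Peaks that also lay at the promoter of a neighbouring gene were not set aside here, so a value need not belong to the named gene alone. Over all protein-coding genes with such a peak, 22.1% were called higher and 44.1% lower in mESCs on BGI, and 22.5% and 45.8% on Illumina, with median log2 fold changes of -0.18 on both. A gene open in a single cell type had a peak only through that cell type, so the counts and medians of the lists are descriptions of the genes with a peak, and nothing is read from their distance to the values over all genes. Of 33 other meiosis and germline genes, 25 had a promoter peak on BGI, of which 15 were called higher, 6 lower and 4 neither, with a median log2 fold change of 1.75. On Illumina 16 of 27 were higher and 3 lower, with a median of 2.20. The genes with the largest rise were Meioc (4.30 ± 0.16 on BGI), which sustains entry into meiotic prophase, Tex19.1 (4.08 ± 0.19), Hormad2 (4.04 ± 0.21), an axis protein of meiotic chromosomes, and Syce3 (3.75 ± 0.24), a part of the synaptonemal complex. Those that fell most were Spo11 (-1.88 ± 0.24), which makes meiotic DNA breaks, Mei1 (-1.42 ± 0.24) and the cohesin subunit Stag3 (-0.60 ± 0.09).

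In the piRNA pathway, 11 of 19 genes had a promoter peak on BGI, with 6 higher, 3 lower and a median of 0.60, and 13 on Illumina, with 8 higher, 2 lower and a median of 0.69. Tdrd12 (4.28 ± 0.25), Gpat2 (3.46 ± 0.21), Piwil2 (3.31 ± 0.23), a Piwi protein, and Tdrd9 (1.28 ± 0.20) rose, and Tdrkh (-0.82 ± 0.09) and Tdrd7 (-0.77 ± 0.11) fell, both with promoters that were open in both cell types. Of 13 genes of primordial germ cells and early pluripotency, 12 had a promoter peak on each platform, 9 rose and 2 fell on both, and the medians were 1.70 and 1.67. They were led by Zfp42 (5.38 ± 0.16), Tcl1 (4.56 ± 0.27), Sall4 (3.50 ± 0.16) and Utf1 (3.10 ± 0.14), while Dazap1 (-1.17 ± 0.08) and Nanos3 (-0.48 ± 0.19) fell.

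Of 17 relatives of the Dppa genes and genes of the cleavage-stage embryo, only 5 had a promoter peak on either platform, and the other 12 had none. The median log2 fold change of the 5 was 1.23 on BGI and 1.26 on Illumina. Duxf3, the mouse Dux gene (1.79 ± 0.528 CPM in MEFs and 7.49 ± 0.847 CPM in mESCs, SD, n = 3), Dppa3 (1.39 ± 0.27) and Tle6 (1.23 ± 0.11) rose, and Khdc3 (-0.87 ± 0.20) fell. The authors kept only uniquely mapped reads. The Dux genes form a repeat, so the Duxf3 value is uncertain. At genes with similar copies, such as those of the Zscan4 family, a missing peak does not show a closed promoter. All 14 genes for PRC1.6 subunits and partners had a promoter peak, with 1 higher and 7 lower in mESCs on BGI and 1 higher and 10 lower on Illumina, and medians of -0.25 on both. Of all protein-coding genes with such a peak, 44.1% were called lower on BGI and 45.8% on Illumina, with medians of -0.18, so falls were common at promoters in general. Pcgf6, its defining subunit, had a log2 fold change of 0.33 ± 0.12 (edgeR adjusted p = 0.0170), and E2f6 had the largest fall, at -1.46 ± 0.14 (edgeR adjusted p = 2.35e-08), followed by Tfdp1 (-0.61 ± 0.11), Wdr5 (-0.43 ± 0.10) and Ring1 (-0.35 ± 0.13).

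**Figure D5:**
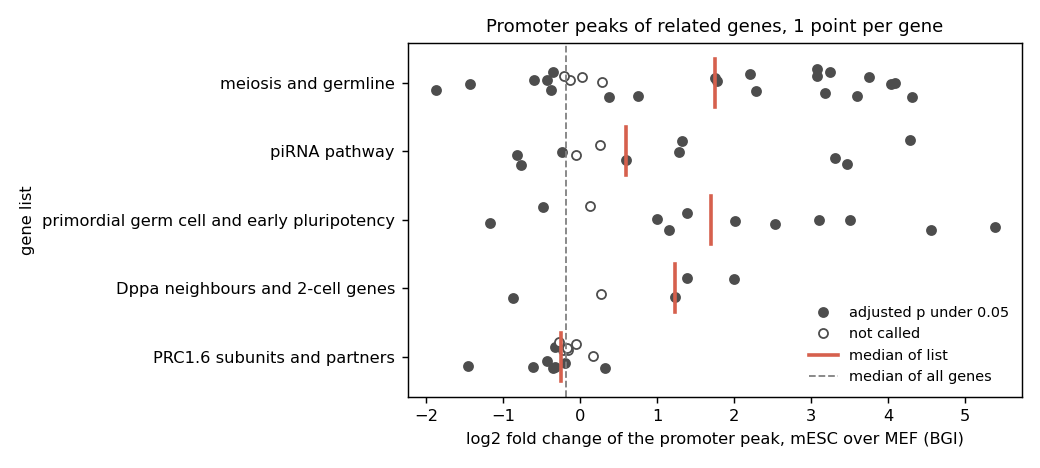
Log2 fold change of the promoter peak on BGI for each gene of 5 lists, with filled points for genes called at an adjusted p under 0.05, open points for the others, a red bar at the median of the list and a dashed line at the median of all protein-coding genes (-0.18). The list medians are 1.75 (meiosis), 0.60 (piRNA), 1.70 (primordial germ cells), 1.23 (Dppa neighbours and 2-cell genes) and -0.25 (PRC1.6), over the genes with a reproducible promoter peak in at least one cell type.

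The promoter peaks most like those of the members over the 6 BGI samples were found by the root mean square difference of log2 CPM among 15124 promoters of other protein-coding genes. The closest to Dppa5a was Esrrb (0.119), which encodes a nuclear receptor of the pluripotency network, followed by Triml2 (0.261) and Gm4756 (0.299). Sycp3 was most like Prss42 (0.0995), Fam25c (0.165) and Ano9 (0.174), and Mael like Lkaaear1 (0.204), Platr17 (0.211) and AU015836 (0.236). Ddx4 was most like Mcmdc2 (0.226), a gene of meiotic recombination, Fut2 (0.266) and Pabpc6 (0.269). Nearest to Dppa2 were 9130230L23Rik (0.332), Tulp2 (0.354) and 1700024G13Rik (0.390), and to Dppa4 Kcnu1 (0.358), Gm281 (0.497) and Fthl17f, at nearly the same distance as Gm281. The Dazl peak, open in both cell types, had the closest neighbours, Agap1 (0.0382), Gpc5 (0.0699) and Dpy19l1 (0.0776). Dppa4 had only a few reads per MEF sample, and the part of counting error in its distances was not tested.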

How the data were processed

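Per the study's methods, the authors sequenced 100 bp reads on BGI and 150 bp reads on Illumina, trimmed the latter to 100 bp, aligned reads with Bowtie2 to GRCm38.p6 (mm10), discarded PCR duplicates and reads on the mitochondrial genome, and down-sampled MEF samples to 60 M and mESC samples to 45 M reads. Only uniquely mapped reads were kept. The deposited calls of each sample, made with MACS2, give summits with a fold enrichment (a ratio) over the genome background and a −log10 p-value. The authors extended summits to peaks of fixed width, kept those reproducible in a cell type and deposited their positions, and for both cell types together raw counts of reads per peak and sample. Columns without a platform name were taken as Illumina, and 0 per-sample columns were left unmapped. Fold changes and p-values of the authors were not used.

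Counts were tested over all peaks in edgeR 4.0.16 (R 4.3.3, quasi-likelihood F test) with TMM scaling, the default filter on low counts and Benjamini-Hochberg adjustment, two-sided, with 3 against 3 samples per platform. An exact permutation test of 3 against 3 cannot go below 0.1, so none is given. The fits were checked on simulated counts. CPM are counts scaled to the reads in the peak set, and SE is that of the log2 fold change. Reads ranged from 15860985 to 21662775 per sample on the BGI peak set and from 15996202 to 21441767 on the Illumina set, and the study calls the libraries biological replicates without naming separate animals or cultures, so that p-values measure the spread between these samples. Group lists were matched by 50% overlap.

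The 2 readings of a library pair by number: after removal of group means, same-numbered samples correlated over all peaks at r = 0.371 to 0.573 and others at -0.391 to -0.0173. MEF and mESC libraries share only the number 1 and were not paired. The genes and lists were chosen with earlier results of these data known, and the window of 500 bp around gene starts after seeing the calls. All peaks of the 8 genes are named. Of each list, up to 4 genes per direction are named with the largest BGI change among those called alike on both platforms, and for each gene with a promoter peak the 3 most similar promoters by log2 CPM with a prior count of 2. Alternatives were DESeq2 1.42.0, other scalings, filters and windows, and leaving out each library.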

Additional observations from a re-analysis of the deposited data

How the results depend on the processing

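The 16 BGI and 17 Illumina calls among the peaks of the 8 genes were recounted under each alternative. With DESeq2, size factors, down-sampled depths as library sizes, a mean count of at least 50, or the samples of the other platform, there were 16 or 17 calls on BGI and 16 to 18 on Illumina. Leaving out each library in turn gave 16 on BGI in every case and 16 to 18 on Illumina. A log2 fold change of at least 1 left 14 on each platform, which removed the Dazl peak and the neighbours of Tdrd1. The number of calls followed the window: 10 on each platform for peaks that touched the gene body, and 26 of 27 on BGI within 10 kb, by construction. The default filter removed no peak, so that the fit without it was the same fit and is not counted here. Of 385 values of single peaks under the other alternatives, 378 kept their direction and their side of the threshold and none reversed, and the 7 others were at the 2 Vwa2 peaks. The second of these passed the threshold with DESeq2 (edgeR adjusted p = 0.0509, DESeq2 adjusted p = 0.0431), without MEF library 2 (adjusted p = 0.0297) and without mESC library 1 (adjusted p = 0.0311). The first was called with the Illumina samples on the BGI peaks (adjusted p = 0.0146).

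The interaction of platform and cell type was called at 0 of these peaks in each alternative, including the pairing of readings by library as a replicate block (0), where 353 peaks of the whole set were called. A window of 250 bp around gene starts kept the same 6 genes called in all 3 mESC and no MEF sample, and 1000 bp, both chosen after seeing the data, left 5, since it took in the inner Dazl peak. At the BGI peaks called higher in mESCs other than the Dppa2 promoter, MEFs held 8 to 59 reads over 3 libraries, which limits the precision of the large fold changes. Among called peaks, leaving out 1 library moved the fold by over 1.5 times at the inner Dppa2 peaks (without MEF library 2 on BGI, log2 5.03 to 5.62 and 6.45 to 7.77, and without MEF library 4 on Illumina, 5.92 to 6.59) and at 2 Dppa5a peaks on Illumina (5.81 to 6.59 without MEF library 2 at -3458 bp, and 4.66 to 5.26 without MEF library 1 at 2078 bp).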

Other observations

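Accessible sites continued beyond 5 kb around Dppa5a. Between 5 and 10 kb from the gene lay 5 further peaks on each platform, all called higher in mESCs. The one at -6847 bp had 0.420 ± 0.0256 CPM in MEFs and 26.7 ± 2.14 CPM in mESCs on BGI (SD, n = 3), a level like that of the promoter, with a log2 fold change of 5.90 ± 0.20 (edgeR adjusted p = 1.79e-13). The peak farthest downstream, at 9926 bp, was the only one of the 5 with more than 1 CPM in MEFs, at 3.63 ± 1.07 CPM against 24.0 ± 0.541 CPM in mESCs. In the same distance range a peak 7358 bp from the body of Tdrd1 fell, from 7.37 ± 0.542 to 1.11 ± 0.279 CPM (log2 fold change -2.80 ± 0.26, edgeR adjusted p = 2.17e-08), and a peak 7147 bp from Sycp3, in the BGI set only, fell from 5.09 ± 0.717 to 1.11 ± 0.347 CPM. Another Sycp3 peak of the BGI set only, 9559 bp from the body, rose from 0.481 ± 0.207 to 5.91 ± 0.633 CPM (log2 fold change 3.52 ± 0.35, edgeR adjusted p = 4.11e-08). These peaks were looked at after the values within 5 kb were known.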
